A study of Homo sapiens with 18 samples.

Results

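The H3K4me3 landscape of MDA-MB-231 cells was described from the 1 list of peaks called by the authors for trimethylated lysine 4 of histone H3. All peaks on chromosomes 1 to 22 were taken: 70139 of the 71597 H3K4me3 peaks, in a study whose 6 peak lists hold 778196 peaks. MDA-MB-231 is a widely used cell line that came from a triple-negative breast cancer. The study profiled chromatin by immunoprecipitation and sequencing (ChIP-seq) in 18 libraries, 9 groups of 2. The groups used here were parental cells for H3K4me3, for the transcription factor MYC, for the histone demethylase KDM2B and for the Polycomb marks H2AK119ub and H3K27me3. H3K27ac, which marks active promoters and enhancers, came from a different stock, cells with an empty vector, so a site with only 1 of these 2 marks may differ between stocks. The labels name no treatment of either stock and do not tell if the paired libraries are from different cultures. Both H3K4me3 libraries went into 1 joint list, so no value below has a replicate error. The ranges in parentheses after shares are Wilson intervals at 95%, for counting error alone.

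H3K4me3 is placed by methyltransferases of the COMPASS family, whose SET1 and MLL enzymes are brought to promoters in part by CXXC domains that bind CpG DNA without methylation. The mark flanks the start sites of transcribed genes and is read by proteins with PHD, Tudor or chromodomain modules, such as TAF3 of the general factor TFIID. Promoters rich in CpG that are held by Polycomb complexes can carry H3K4me3 together with H3K27me3, and narrow, low H3K4me3 signal is also known at enhancers.

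The pattern that runs through the list can be read from 7 start regions, shown because they pair starts with and without the mark. Each line holds the 250 bases before a start, 5′ to 3′ on the strand of the gene, with every CpG in capitals. The sequences are from RefSeq, build GRCh38.p14.
PPP1R7 start: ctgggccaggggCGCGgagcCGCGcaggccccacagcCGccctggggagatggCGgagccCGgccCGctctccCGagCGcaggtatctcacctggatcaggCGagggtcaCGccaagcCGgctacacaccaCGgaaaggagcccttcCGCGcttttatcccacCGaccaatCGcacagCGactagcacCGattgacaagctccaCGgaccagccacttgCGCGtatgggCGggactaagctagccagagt
CDC14A outer start: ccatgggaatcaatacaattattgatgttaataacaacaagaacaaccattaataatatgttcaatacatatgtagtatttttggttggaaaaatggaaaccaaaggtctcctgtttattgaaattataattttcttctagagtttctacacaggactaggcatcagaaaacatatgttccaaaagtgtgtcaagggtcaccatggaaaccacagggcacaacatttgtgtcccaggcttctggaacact
CDC14A inner start: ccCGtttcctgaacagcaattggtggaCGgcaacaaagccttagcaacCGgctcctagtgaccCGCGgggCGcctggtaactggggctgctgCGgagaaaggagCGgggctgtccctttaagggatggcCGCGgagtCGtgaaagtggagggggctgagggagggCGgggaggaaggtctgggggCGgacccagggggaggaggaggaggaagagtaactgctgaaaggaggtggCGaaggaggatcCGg
IKZF2 start: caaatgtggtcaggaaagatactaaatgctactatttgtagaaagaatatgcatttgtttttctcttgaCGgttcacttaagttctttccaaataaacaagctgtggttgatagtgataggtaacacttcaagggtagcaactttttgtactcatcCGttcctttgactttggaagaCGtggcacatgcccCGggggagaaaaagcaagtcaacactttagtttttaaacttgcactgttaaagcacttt
DANCR start: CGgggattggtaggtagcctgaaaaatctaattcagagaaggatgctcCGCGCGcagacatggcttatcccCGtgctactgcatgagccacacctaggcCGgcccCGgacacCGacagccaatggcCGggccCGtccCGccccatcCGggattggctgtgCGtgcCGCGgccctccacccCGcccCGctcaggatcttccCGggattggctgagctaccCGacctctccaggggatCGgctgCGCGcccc
CACNA1D start: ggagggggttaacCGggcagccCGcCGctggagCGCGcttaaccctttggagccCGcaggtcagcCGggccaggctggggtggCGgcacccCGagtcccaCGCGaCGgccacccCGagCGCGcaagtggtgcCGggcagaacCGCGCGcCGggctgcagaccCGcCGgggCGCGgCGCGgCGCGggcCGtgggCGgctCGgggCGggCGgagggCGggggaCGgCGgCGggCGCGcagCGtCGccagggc
OR4B1 start: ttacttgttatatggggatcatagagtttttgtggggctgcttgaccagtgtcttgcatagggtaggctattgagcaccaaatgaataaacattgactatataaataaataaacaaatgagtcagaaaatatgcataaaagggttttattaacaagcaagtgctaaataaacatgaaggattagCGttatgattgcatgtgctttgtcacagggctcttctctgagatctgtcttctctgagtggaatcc

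The PPP1R7 sequence, at chr2:241149323-241149572 on the plus strand, holds 24 CpGs and lies in the gene-end peak with the highest fold of the list, 83.4. The fold, a ratio given by the authors, compares the signal at a peak's highest point with its background. This peak, chr2:241146410-241154059, spans 7650 bp, and its summit lay 1137 bp from the PPP1R7 start. The peak also covers an end of PASK, a nutrient-sensing kinase, while PPP1R7 is a regulatory subunit of protein phosphatase 1.

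CDC14A, a cell cycle phosphatase, has starts of both kinds. Its outermost start is preceded by 0 CpGs at chr1:100344751-100345000 and had no H3K4me3 peak within 1 kb. The inner start, preceded by 15 CpGs at chr1:100352256-100352505, lay in a peak of 5736 bp with a fold of 66.3.

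IKZF2, the gene of the zinc finger factor Helios, was the CpG-poor exception with the highest fold. Only 4 CpGs stand in its 250 bases, chr2:213152457-213152706 on the minus strand, yet a peak of 5866 bp and fold 65.6 had its summit 374 bp from the start. DANCR is a long noncoding RNA that hosts a small nucleolar RNA. Its 250 bases, chr4:52712144-52712393, hold 22 CpGs inside the highest-fold peak of the whole list, which no protein-coding record reaches.

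The last 2 sequences had no H3K4me3 peak within 1 kb. CACNA1D, a neuronal and endocrine calcium channel, has 41 CpGs at chr3:53494361-53494610 and was covered within 1 kb by both H2AK119ub and H3K27me3. OR4B1, an olfactory receptor, has 1 CpG at chr11:48216560-48216809, and both Polycomb marks were also called within 1 kb of its start.

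Most H3K4me3 peaks were small, and a minority of wide, high peaks at gene ends held most of the covered sequence. The median width over the list was 641 bp (range 193 to 58862 bp) and the median fold was 3.43 (range 1.25 to 91.6). Peaks under 500 bp made up 41.3% of the list. The 10893 peaks wider than 4000 bp were 15.5% of the list, covered 61.0% of its 128.8 Mb, and 78.5% of them lay at a gene end. Their median fold was 42.99.

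A peak was placed at a gene end when at least 1 bp of it fell within 1 kb of either end of a protein-coding record. Otherwise it was inside a record or outside all of them. Gene ends took 14032 peaks, or 20.01% of the list (19.7% to 20.3%), and 56.4% of the covered sequence. Peaks inside a record only numbered 29972, or 42.7% (42.4% to 43.1%). The remaining 26135 peaks, 37.3% (36.9% to 37.6%), lay outside records.

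Peaks at gene ends were of another size from the rest. Their median width was 4963 bp and their median fold 37.8. Peaks inside records had a median width of 503 bp and a median fold of 2.95. Peaks outside records were close to those inside, with a median width of 526 bp and a median fold of 3.24. The middle 50% of gene-end peaks spanned 1951 to 7060 bp, against 304 to 1023 bp inside and 313 to 1081 bp outside. The spread at gene ends also held a small tail, since 11.5% of gene-end peaks were under 500 bp.

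**Figure D1:**
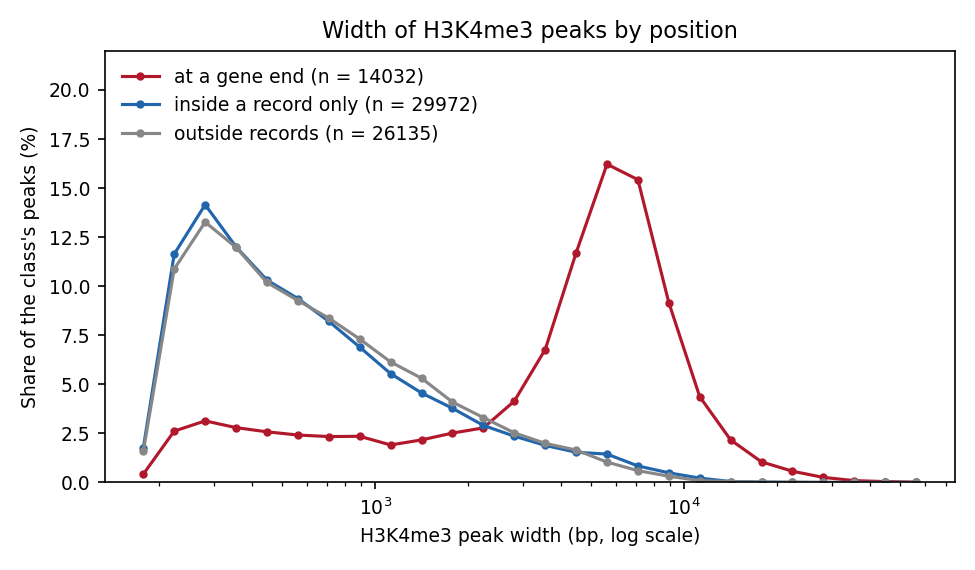
Share of the H3K4me3 peaks of each position class (y axis, %) by peak width (x axis, bp, log scale), with points at the centres of equal log steps. Peaks at a gene end centre on a median of 4963 bp, while those inside records (503 bp) and outside records (526 bp) follow nearly the same narrow distribution.

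Many of the small peaks lay close to another one. When peaks within 1 kb of each other were joined, 40199 regions remained, of which 58.8% were single peaks. The fullest region joined 22 peaks, and 66.3% of all peaks were in a region of several. Of the peaks inside records, 37.8% were within 5 kb of a gene-end peak, and of those outside records 25.4% were. These near peaks were narrower and lower, with a median width of 420 bp and fold of 2.57 inside, against 576 bp and 3.52 farther away. They also overlapped H3K27ac less often: 29.2% of near peaks inside records did, against 74.4% of those farther away, and outside records the shares were 30.9% and 62.6%. Chromatin was cut enzymatically and peaks were called in narrow form, and the part of either in the number of small peaks was not tested.

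The other lists overlapped H3K4me3 peaks to different degrees at the 3 positions. H3K27ac covered part of 79.3% of gene-end peaks (78.6% to 79.9%), 57.3% of those inside records and 54.5% of those outside. MYC overlapped 79.1%, 29.8% and 33.6% of them in the same order. KDM2B, which carries a CXXC domain that binds CpG DNA, had the shortest list, 19831 peaks, and overlapped 57.5%, 5.12% and 5.53%. H2AK119ub, written by PRC1, overlapped 41.5%, 27.2% and 22.8%. H3K27me3, written by PRC2, overlapped 13.3%, 7.18% and 12.8%. Peaks that touched none of the 5 other lists were 6.43% of gene-end peaks, 24.8% of inside peaks and 26.7% of outside peaks. They were small, with median widths of 392, 348 and 373 bp.

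Wide peaks can meet another peak more easily, so the overlaps were also read within width classes. Among peaks up to 300 bp the order turned: H3K27ac overlapped 24.8% at gene ends, 41.8% inside and 40.1% outside. Over 1000 and up to 2000 bp the shares were 49.7%, 75.8% and 69.7%. Over 4000 bp they came together at 97.6%, 94.98% and 96.1%. MYC overlap rose with width at all positions, from 9.06%, 10.4% and 13.3% of the narrowest peaks to 99.4%, 98.3% and 97.3% of the widest. KDM2B overlapped 0.262%, 0.220% and 0.476% of the narrowest peaks and 82.4%, 64.5% and 61.9% of the widest. Over 2000 and up to 4000 bp its shares were 46.5%, 18.3% and 23.6%. H2AK119ub overlapped 37.0%, 22.3% and 17.8% of the narrowest peaks and 40.8%, 46.9% and 49.1% of the widest. The higher overall H3K27ac overlap at gene ends was therefore not present within the classes up to 4000 bp.

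**Figure D2:**
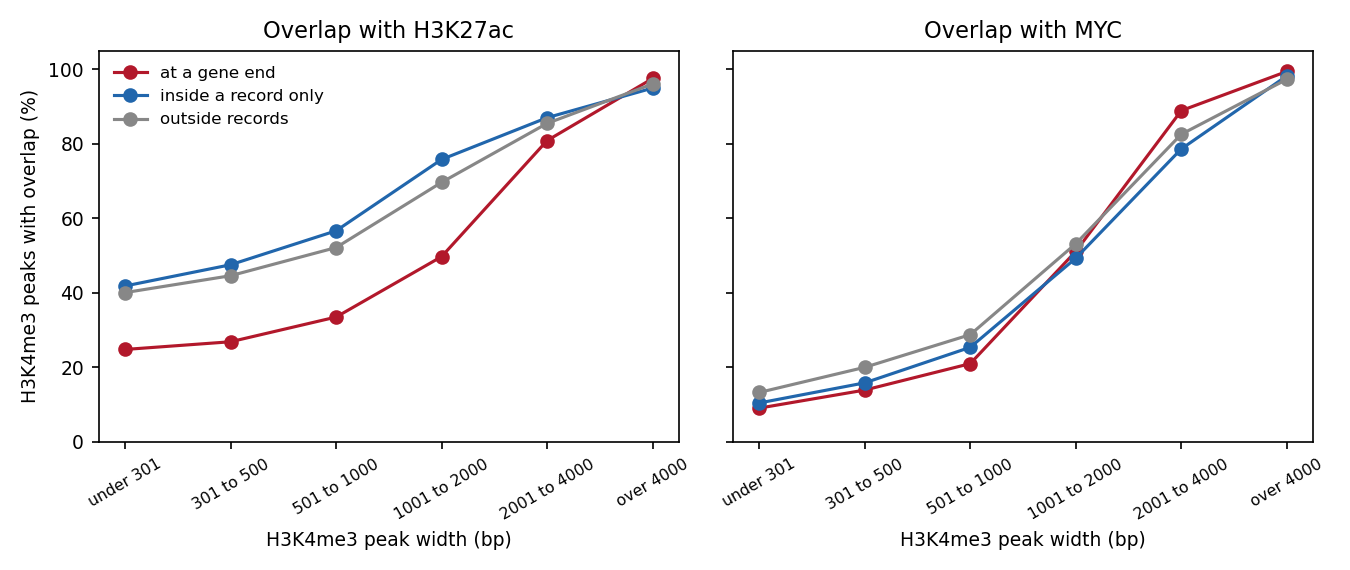
Share of H3K4me3 peaks (y axis, %) that overlap an H3K27ac peak (left) or a MYC peak (right) by at least 1 bp, by H3K4me3 width (x axis, bp) and position. Below 4000 bp gene-end peaks overlap H3K27ac less often than inside or outside peaks, and over 4000 bp all positions lie above 94% in both panels.

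Of the 19122 protein-coding genes, 13410 had H3K4me3 within 1 kb of an end, which is 70.1% (69.5% to 70.8%). Both ends were marked in 3917 genes (20.5%), whose records were short, with a median of 8.62 kb against 40.5 kb for genes with 1 marked end. In 1643 of them (41.9%) 1 peak reached both ends. With summits in place of whole peaks, 7.30% of genes were marked at both ends and 13.98% inside only. A peak inside the record and none at an end was found in 1508 genes, 7.89% of the total. The other 4204 genes, 22% of the total, had no H3K4me3 peak. H3K27ac was within 1 kb of an end in 89.6% of genes with H3K4me3 at an end, 10.7% of genes marked inside only and 3.16% of genes with none. H3K27me3 ran the other way, at 14.05%, 52.3% and 59.8%.

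The share marked inside only and the share with no peak moved steadily with record length, and the share marked at an end did not. Among records up to 10 kb, 57.8% were marked at an end and 0.808% inside only. The end shares were 74.0% at 10 to 30 kb and 77.6% at 30 to 100 kb. Among records over 100 kb, 71.8% were marked at an end and 21.2% inside only, and only 6.95% had no peak at all. The median number of peaks inside a record was 0 in the shortest class and 3 in the longest.

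The start end and the far end could be told apart for the 15100 genes with an annotated start in the promoter table. Start annotation was missing for chromosome 8, with 714 genes, so all values by start leave it out. The start end was marked in 69.3% of them (68.6% to 70.1%) and the far end in 23.6%. Only 2.72% had H3K4me3 at the far end and not at the start end. In records over 4 kb, 72.1% of start ends and 20.6% of far ends were marked. A single peak can still reach both ends of a record of this length, and these cases were not counted apart. Far ends of such records with an annotated start of any gene within 1 kb, the gene's own included, were marked in 66.5% of cases. Those with no start nearby were marked in 18.8%. Peaks at a far end and at no annotated start were small, with a median width of 609.5 bp and a median fold of 2.68. Peaks at start ends had a median width of 5682 bp and a median fold of 41.8.

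H3K4me3 around the outermost start of these genes was broad and leaned into the gene. A peak covered the start itself in 67.0% of the 15100 genes, the position 2 kb upstream in 48.5% and the position 2 kb downstream in 62.3%. At 4 kb the shares were 23.2% upstream and 35.4% downstream. H3K27ac and MYC stood over the start in 54.1% and 57.8% of genes and fell off more steeply, to 34.7% and 12.0% at 2 kb downstream. KDM2B was narrower again, with 35.8% at 200 bp downstream and 2.23% at 2 kb downstream.

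The summit, the highest point of a peak, lay downstream of the start in most cases. At the 7680 marked starts whose peak touched no other listed outermost start, the median summit was 276 bp downstream, and 85% of summits were downstream. These peaks reached a median of 2031 bp upstream and 3464.5 bp downstream of the start. At the 2872 starts that share a peak with another start, the median offset was 153.5 bp and 57.8% of summits were downstream.

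**Figure D3:**
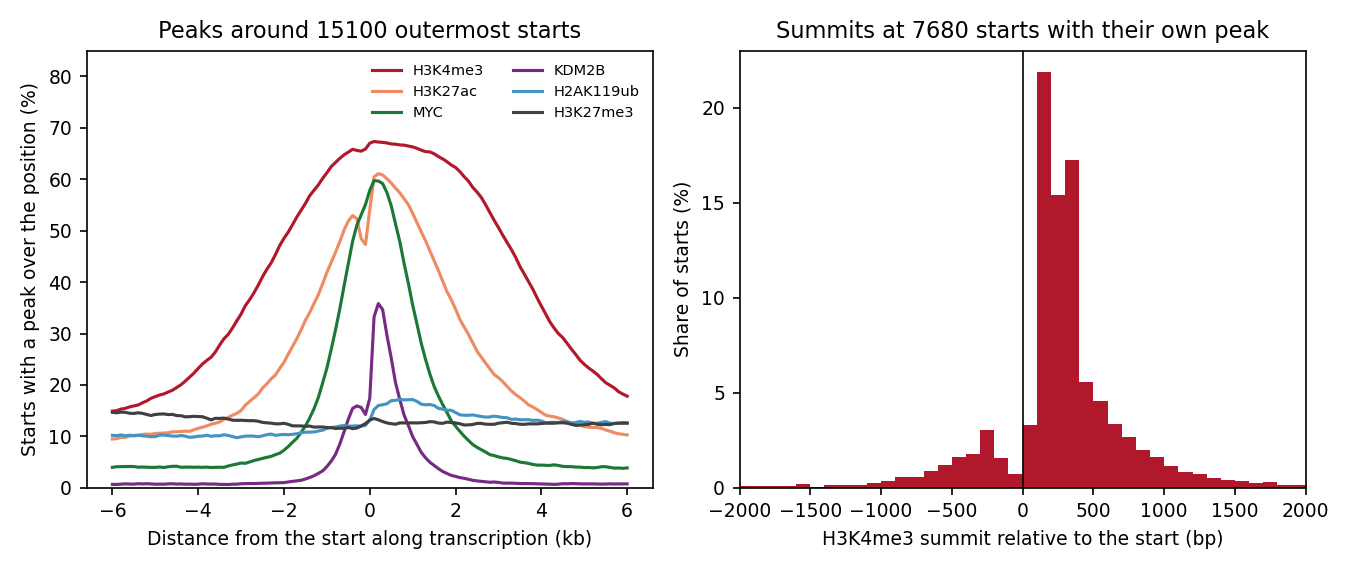
Left, share of 15100 outermost annotated starts (y axis, %) with a peak of each target over each position (x axis, kb along transcription), where H3K4me3 is the widest profile and extends farther downstream than upstream. Right, position of the H3K4me3 summit (x axis, bp from the start, bins of 100 bp) at 7680 starts with their own peak (y axis, %), with 85% downstream.

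Starts with H3K4me3 were rich in CpG. The 300 bases from 250 before to 50 after the start held a median of 26 CpGs at the 10552 starts with a peak within 1 kb and 5 CpGs at the 4548 starts without. The background for these counts is the 69.9% of all 15100 starts that were marked. With 0 to 4 CpGs, 16.9% of starts were marked (15.5% to 18.4%). The share was 41.9% with 5 to 9 CpGs, 66.3% with 10 to 14 and 81.6% with 15 to 19. It reached 88.1% with 20 to 29 CpGs and 90.1% (89.2% to 90.9%) with 30 or more. The median fold of the marked starts went from 24.8 in the lowest class to 45.4 in the highest, and their median width from 3944 to 6658 bp.

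Over all 4548 starts without H3K4me3, 50.4% had H2AK119ub and 51.4% had H3K27me3 within 1 kb. CpG-rich starts such as CACNA1D were above the first share and near the second. Of the 454 unmarked starts with 30 or more CpGs, 75.1% had H2AK119ub and 56.6% had H3K27me3. Of the 2086 unmarked starts with 0 to 4 CpGs, as at OR4B1, the shares were 31.4% and 47.6%. Among marked starts with 30 or more CpGs, H2AK119ub was found at 31.6% and H3K27me3 at 5.46%. Across CpG classes the share of unmarked starts with H2AK119ub moved more than the share with H3K27me3.

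**Figure D4:**
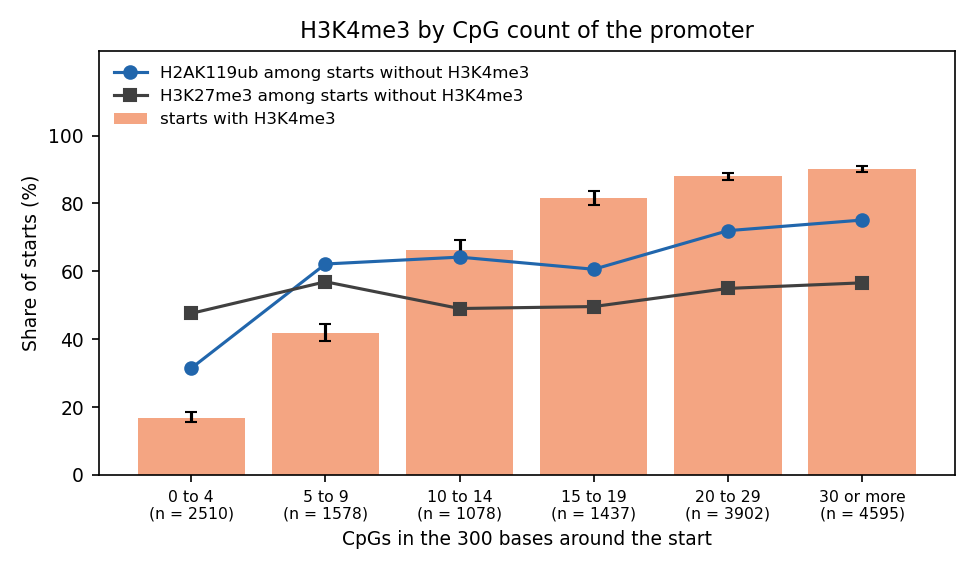
Bars show the share of starts with H3K4me3 within 1 kb (y axis, %, with 95% Wilson intervals) by CpG count in 300 bases (x axis), from 16.9% with 0 to 4 CpGs to 90.1% with 30 or more. Lines show the share of the starts without H3K4me3 that had H2AK119ub (circles) or H3K27me3 (squares), 75.1% and 56.6% in the last class.

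Short sequence motifs were counted in the same 300 bases. The GC box GGGCGG, which SP1 family factors bind, was present on either strand in 58.7% of all starts, 71.5% of marked ones and 28.9% of unmarked ones. It contains a CpG, and among starts with 20 or more CpGs the shares were 82.9% and 82.0%. With under 10 CpGs they were 21.8% and 9.42%. The ETS core CCGGAA, also with a CpG, was present on either strand in 22.9% of all starts, 29.7% of marked and 7.34% of unmarked ones. At starts with 20 or more CpGs it was found in 33.2% of marked and 14.7% of unmarked ones. The CCAAT box, bound by NF-Y, was at 36.3% of marked and 35.5% of unmarked starts on either strand, and at 34.4% and 25.2% of those with 20 or more CpGs.

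TATAAA on the sense strand went the other way, in 3.85% of marked and 14.6% of unmarked starts, with 7.07% over all starts. With 20 or more CpGs its shares were 2.19% and 4.36%, and with under 10 CpGs 11.5% and 18.9%. The E-box CACGTG, bound by MYC, was in 10.1% of marked and 5.52% of unmarked starts and in 8.71% of all. At starts with 20 or more CpGs its shares were 11.1% and 10.2%. A match of letters in this window is no evidence of binding. In the sequences printed above, the PPP1R7, CDC14A inner and DANCR regions each hold 2 GC boxes, CACNA1D holds 4, overlapping matches included, and OR4B1 holds the only TATAAA.

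A small group of marked starts lacked H3K27ac. They numbered 975, or 9.24% of the 10552 marked starts, with a median fold of 10.7 against 44.8 at starts with both marks. H3K27me3 was within 1 kb of 51.3% of them and H2AK119ub of 76.5%, compared with 1.82% and 20.9% of starts that had H3K27ac as well. H3K27ac came from the empty-vector stock, and the part of the stock in these differences was not tested.

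The genes with the highest fold at an end came from many processes. After PASK and PPP1R7 came GMNC, a geminin-family regulator of multiciliated cells, with a fold of 83.3. IQGAP1, a scaffold of the actin cytoskeleton, had 81.7, and RNASEH1, a nuclease for RNA-DNA hybrids, had 81.5. The remaining members of the top 10 were ZNF672, the ribosomal protein gene RPL6, PRPSAP2, the RNA-binding protein gene IGF2BP2 and DCAF7, between 80.8 and 79.6. Each of these 9 peaks overlapped H3K27ac, MYC and KDM2B peaks, and none overlapped H3K27me3. The widest of them, at IGF2BP2, spanned 17491 bp.

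A wider peak can reach more gene ends, so width and the number of genes at a peak are tied by construction. A peak that reached the ends of 1 gene had a median width of 4483 bp (10930 peaks), and one that reached 2 genes had 6404 bp (2599 peaks). Peaks at 5 genes had a median of 23324 bp (36 peaks), while the median fold moved only from 35.4 to 48.4. The widest peak, chr11:790581-849442, was 58862 bp with a fold of 59.3. It reached the ends of 10 genes: CEND1, SLC25A22, PANO1, PIDD1, RPLP2, PNPLA2, CRACR2B, CD151, POLR2L and TSPAN4. Among them, CD151 and TSPAN4 are tetraspanins, RPLP2 is a ribosomal protein, POLR2L an RNA polymerase subunit and PNPLA2 a triglyceride lipase.

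Some genes marked only inside their record have an internal start at the peak, as CDC14A did. The internal peak of highest fold lay at an annotated start of any gene in 425 of the 1439 such genes on chromosomes with start annotation (29.5%). The share was 74.5% when that peak had a fold of 20 or more (313 of 420 genes) and 10.99% when it was lower. At a start of the gene itself it lay in 336 of the 1439 genes (23.3%), and in 92 it reached an end of another gene. The 10 genes with the highest internal fold all had their peak within 1 kb of a start of their own, and the peak in SPIRE1 also reached an end of PSMG2. They were led by MBNL1, a splicing regulator, with a fold of 70.4 and a width of 7637 bp, and by STK17B, a kinase linked to apoptosis, with 66.9. AEN, CDC14A, FOCAD, ADGRL2, SPIRE1, TPM3, PCGF5 and SLC39A10 followed, between 66.8 and 64.9. All 10 peaks overlapped H3K27ac, MYC and KDM2B peaks.

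In the 1569 genes whose outermost and innermost annotated starts lie at least 5 kb apart, H3K4me3 was at both in 31.6%, at the outer one only in 35.1% and at the inner one only in 10.2%. It was at neither in 23.1%.

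Peaks inside records that coincide with an annotated start were few but high. They were 6.09% of inside peaks on chromosomes with start annotation, with a median width of 3117 bp and a median fold of 16.6. The other 93.9% had a median width of 480 bp and a median fold of 2.86. These lacked KDM2B almost entirely, with 2.80% overlap, but 56.0% overlapped H3K27ac.

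The records with the most internal peaks belonged to large genes. EXT1, which makes heparan sulfate chains, held 56 peaks in 317 kb. RANBP2, a nucleoporin gene, held 47, but its record here spans 1123 kb and encloses CCDC138, EDAR, SH3RF3, SEPTIN10 and SOWAHC. GNG7, a G protein subunit gene, held 46 in 191 kb, DST, which encodes a cytoskeletal linker, held 44 in 497 kb, and CRIM1, a transmembrane regulator of BMP signalling, held 38 in 195 kb. In 4 of the 5 the highest internal fold was between 19.7 and 59.3, and in CRIM1 it was 9.80. All 5 were also marked at an end.

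Peaks outside protein-coding records lay at a median of 20.5 kb from the nearest coding gene, and 21.1% of them were over 100 kb away. Those 1 to 5 kb away overlapped H3K27ac in 32.3% of cases. At 20 to 50 kb the share was 66.4%, and over 100 kb it was 62.0%. Both H3K27ac and MYC were present at 28.6% of outside peaks, H3K27ac alone of the 2 at 25.9%, MYC alone at 5.00%, and neither at 40.5%. The median folds were 6.32, 3.19, 3.71 and 2.65 in that order.

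Noncoding annotation accounted for part of the outside peaks. Within 1 kb of the end of a noncoding record were 15.3% of them, 20.1% were inside one only, and 64.6% touched none. Fold separated these groups: 19.4% of the peaks at a noncoding end had a fold over 20, against 2.03% of those inside a noncoding record and 2.83% of the rest. Of the 1360 outside peaks with a fold over 20, 57.1% were at a noncoding end. By kind of record, 2661 outside peaks were at the end of a long noncoding RNA, with a median fold of 4.85, and 353 at a transcribed pseudogene, with a median of 24.2. A further 167 were at a tRNA gene, with a median of 7.94.

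The 10 outside peaks with the highest fold were led by the DANCR peak, chr4:52710500-52717022, at 91.6. Its nearest coding record was ERVMER34-1, 25.5 kb away, and the ends of the small RNAs MIR4449 and SNORA26 also lay in reach. The second, with a fold of 72.0, lay on chromosome 9 at chr9:66264873-66273244, 445 kb from the nearest coding record, LOC124902171, and touched no noncoding record. It overlapped H3K27ac, MYC, KDM2B and H2AK119ub peaks. Next came LINC03009 at 71.0, which is 4.81 kb from SPDYE16, and a peak over ends of LINC00863 and NUTM2A-AS1 at 69.3, which lies 11.7 kb from NUTM2D. A peak at 68.5, 33.3 kb from ZNF124, reached the end of an annotated 5S pseudogene.

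The transcribed pseudogenes FAM86C1P, 42.7 kb from DEFB108B, and SDHAP1, 54.8 kb from TFRC, had folds of 65.9 and 65.2. They have close copies elsewhere in the genome, so reads may be shared between copies. CHASERR, a long noncoding RNA 11.8 kb from the chromatin remodeller gene CHD2, had 64.4. CYTOR, 103 kb from LOC124907854, had 63.9, and the host gene of the microRNA MIR130A, 2.77 kb from YPEL4, had 63.7. All 10 overlapped H3K27ac, MYC and KDM2B peaks, and none overlapped H3K27me3.

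Gene lists were read against the background of 70.1% of all coding genes marked at an end and a median fold of 43.4 at marked genes. Either end of a record counted, so the fold given for a gene can be that of a peak away from its start. In the list of H3K4 methyltransferases and COMPASS subunits, 19 of 20 genes were marked, with a median fold of 49.7. KMT2A, the MLL1 enzyme, had 62.0, PAXIP1 61.4, SETD1B 58.8 and SETD7 55.8. KMT2B, the MLL2 enzyme, had the widest peak of the list at 26425 bp, at the higher-coordinate end of its record. This is not its peak of highest fold, which lay at the lower-coordinate end. That peak was 13704 bp wide with a fold of 54.3 and also reached ZBTB32. The exception was PRDM9, the meiotic methyltransferase, with no H3K4me3 peak and no peak of the other 5 lists at its ends.

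All 8 histone demethylase genes of the list were marked. KDM1 and KDM5 enzymes act on H3K4, while KDM2A and KDM4A are best known for other lysines of H3. The highest folds were KDM1B at 60.5, KDM5B at 56.5, KDM2A at 54.5 and RIOX1 at 49.4. At gene ends KDM2B had the lowest fold of the 8, 29.2, over 8627 bp, and the widest was KDM4A at 9267 bp. KDM2B also held an internal peak of 9443 bp with a fold of 47.8. Of the reader genes 15 of 17 were marked, including the remodeller CHD1 at 67.5, PHF23 at 55.6, BPTF at 53.4 and ING1 at 51.6. The peak of 40490 bp at PYGO2 was the widest of the readers and also reached PBXIP1, SHC1, CKS1B and FLAD1. RAG2, the lymphocyte recombinase subunit, had none at an end but an internal peak of fold 39.9, which lies at an end of IFTAP. TAF1L had none.

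All 46 general transcription and Mediator genes on these chromosomes were marked. TAF5 had 69.9, MED17 63.0, POLR2K 61.3 and TAF7 59.8, and the widest peak was the one over POLR2L named above. The POLR2K value is from a peak that begins past the higher-coordinate end of its record and also reached SPAG1. The lowest at an end was TAF12 at 17.2, which also held an internal peak of fold 45.3. All 42 housekeeping genes were marked, with a median fold of 51.8. TUBA1B, a tubulin, had 73.7, the glycolytic enzyme genes GAPDH and GPI had 66.2 and 64.5, and HNRNPK had 66.1. The widest was at CHMP2A, with 24887 bp over the ends of 5 genes.

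Of 36 cell cycle and replication genes 34 were marked, led by CDK1 at 68.2, MCM3 at 64.4, RRM1 at 61.5 and MCM4 at 59.2. E2F1 had the widest peak, 30295 bp, shared with 3 neighbouring genes. The exceptions were CDKN2A and CDKN2B, inhibitors of G1 kinases, which had no peak of any of the 6 lists at their ends. They lie in a run of 24 genes with no such peak, and whether this DNA is present in the cells was not tested.

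Markers of cell identity were mixed. Of 20 mesenchymal and basal breast genes 14 were marked, which is 70.0% and close to the background. EGFR had 61.0, CAV2 57.8, CD44 55.0 and MMP14 54.4 with the widest peak, 14628 bp. ZEB1, a repressor of epithelial genes, had 51.3. CDH2, KRT14, KRT5, SPARC, TP63 and TWIST1 had no H3K4me3 at an end, and KRT5 and KRT14 carried H3K27me3 there.

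Of 22 luminal and epithelial genes 17 were marked, or 77.3%, with a median fold of 37.6 at those marked against 48.4 in the mesenchymal and basal list. ERBB3 had 58.2 in a peak shared with PA2G4, and ERBB2 had 44.0 in a peak shared with MIEN1. Both of these peaks lie at the higher-coordinate end of the record, and each gene had another peak at its other end. CLDN7 had 40.1 in a peak of 27131 bp that reached the ends of 5 genes. KRT19 had 40.0. CDH1, the epithelial cadherin, ESR1, the oestrogen receptor, and GRHL2, SPDEF and TFF1 had none at an end. ESR1 held 7 internal peaks with a highest fold of 17.2. The shares of marked genes did not separate the 2 breast lists, with intervals of 48.1% to 85.5% and 56.6% to 89.9%. Epithelial genes such as EPCAM, KRT8 and KRT18 had end peaks, and so did mesenchymal ones such as VIM and ZEB1. H3K27ac was at an end in 14 of the 20 mesenchymal and basal genes and 12 of the 22 luminal and epithelial genes, and H2AK119ub in 7 and 15.

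Blood and liver genes served as lists of other cell types. Of 12 blood genes 6 were marked (50%, 25.4% to 74.6%), an interval that includes the 70.1% of all genes, with a median fold of 9.26 at those marked. CD79A, a B cell receptor subunit, had 56.6 in a peak of 13702 bp that also reached ARHGEF1, while CD14 had 17.6, CD3E 11.1 and SPI1 7.43. CD3E was marked at the higher-coordinate end alone and SPI1 at the lower-coordinate end alone. CD2, CD3D, ITGAM, MS4A1 and PTPRC were among those with none at an end. Of 12 hepatocyte genes 3 were marked (25%, 8.89% to 53.2%): TAT at 29.9 with 4742 bp, APOA1 at 18.5 and SERPINA1 at 1.82. TAT and APOA1 were marked at the lower-coordinate end alone and SERPINA1 at the higher-coordinate end alone. The APOA1 peak also reached APOC3. ALB, APOB, CYP3A4, F2, FGA and FGB were among the 9 that were not.

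Developmental transcription factors were marked in 33 of 80 cases, or 41.2%. SOX9 had 61.4, GATA6 52.5, MSX2 52.2 and FOXC1 50.4. Of the 47 without an end peak, such as ALX1, ALX4, DLX1, DLX5 and DLX6, 34 had H3K27me3 at an end, beside 57.8% of all coding genes without an end peak. Of the 33 with one, 11 had H3K27me3 and 29 had H2AK119ub, beside 14.05% and 43.2% of all coding genes with one. Of 38 secreted or structural genes of other tissues 10 were marked. MBP, a myelin protein gene, had 56.5 and the widest peak, 11325 bp, SFTPC 47.3 in a peak that also reached BMP1, and GFAP 39.6 in one at the ends of 4 genes. KRT10, a keratin, had 39.3 in a peak that reached no other coding gene's end. This peak lies at the lower-coordinate end of the record, and the other end had none. AMY2A, AQP2, CELA3A, CRYAA, DAZL and DDX4 had none at an end.

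Olfactory receptors were at the far end of the scale, with 10 of 391 marked (2.56%). Their median fold was 4.90 and their widest peak was 1374 bp, at OR14A2. OR2V2 had 21.8, OR52N2 17.4, OR52K1 13.7 and OR14A2 8.09. H3K27me3 was at an end in 262 of the 391, or 67.0%. The share was 27.1% over all coding genes and 59.8% over those with no H3K4me3 peak. The 10 include OR8U9, whose record may carry a scaffold position.

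**Figure D5:**
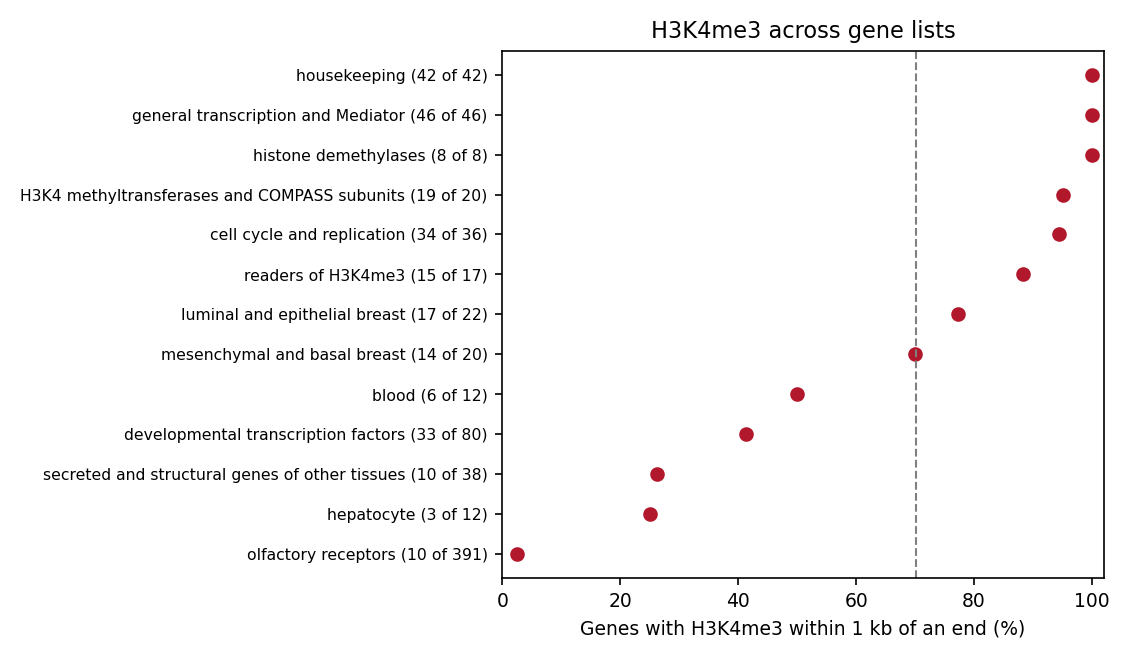
Share of the genes of each list with H3K4me3 within 1 kb of an end (x axis, %), with counts beside the list names (y axis) and a dashed line at the 70.1% of all coding genes. Housekeeping and general transcription genes stand at 100%, and olfactory receptors at 2.56%.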

How the data were processed

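ChIP-seq peaks of 6 targets in MDA-MB-231 cells were analysed, 1 list per target. Groups came from the antibody and cell stock in the titles. The submitters' processing notes name build hg38, MACS2 2.2.7.1, SAMtools 1.6, Bowtie2 2.4.5 and Trim Galore, for which no version is stated. Controls, and whether libraries were pooled, are not given in the sources used here. Depth is unknown. The deposited fold is a ratio of signal to background. The deposited score is 10 times the −log10 q-value of the authors' peak caller, cut to a whole number, in 99.8% of H3K4me3 peaks. The deposited −log10 p-value was not used here. The highest H3K4me3 q was 0.0498. Folds only describe and rank peaks within this list.

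Records of protein-coding genes and starts came from RefSeq for GRCh38.p14. The gene table has no strand, so both ends were used. Starts came from the promoter table, which matched 15100 of the 19122 genes and none on chromosome 8. Some of the 630 records with LOC symbols, and a few others, carry scaffold positions, so an alternative left out the LOC records. Gene symbols were matched directly or by synonym. Overlap meant at least 1 bp. The work used Python 3.11.15, pandas 2.3.3, numpy 2.4.6, statsmodels 0.14.6 and matplotlib 3.10.9, and the overlap code was tested on simulated intervals.

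The members and the 13 gene lists were chosen with earlier results of these data known. Named by rule were the 10 genes of highest fold and the 10 of greatest width at an end, the 10 of highest fold marked inside only, the 5 with the most inside peaks, the 10 outside peaks of highest fold, and of each list up to 4 of highest fold, the widest and up to 6 without an end peak. Other names, the runs of genes included, were chosen after their values were seen. A few genes that the rule names are not reported here. No test was made, since each list is 1 joint list. Alternatives were windows of 500 and 2500 bp, q under 1e-05, merged peaks, summits, every gene record, chromosome X, and LOC records left out.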

Additional observations from a re-analysis of the deposited data

How the results depend on the processing

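The 11 main values were the shares of peaks at a gene end, inside a record and outside records, the shares of genes marked at an end, inside only and at both ends, the median widths at an end and outside, and the overlaps with H3K27ac (at an end and outside) and MYC (outside). Under 8 alternatives, 24 of 88 values stayed within the 95% interval of the main value, or equal to it for a median, and 64 moved. The values that stayed include the shares of genes under merging. These could not change, since the gaps joined are narrower than the windows at gene ends. With windows of 500 bp the values were peaks at an end 18.1%, peaks inside 43.8%, peaks outside 38.1%, genes at an end 68.9%, genes inside only 8.72%, genes at both ends 17.9%, width at an end 5327 bp, width outside 524 bp and H3K27ac at an end 83.9%. With windows of 2500 bp the values were peaks at an end 27.4%, peaks inside 39.1%, peaks outside 33.5%, genes at an end 72.8%, genes inside only 6.29%, genes at both ends 26.2%, width at an end 3314 bp, width outside 541 bp, H3K27ac at an end 66.3%, H3K27ac outside 57.3% and MYC outside 35.4%. With q under 1e-05 the values were peaks at an end 25%, peaks inside 38.4%, peaks outside 36.6%, genes at an end 68.8%, genes at both ends 17.8%, width at an end 5378.5 bp, width outside 751 bp, H3K27ac at an end 85.8%, H3K27ac outside 63% and MYC outside 42.7%. With peaks merged within 1 kb the values were peaks at an end 28.2%, peaks inside 34.9%, width at an end 6726 bp, width outside 915 bp, H3K27ac at an end 88.2%, H3K27ac outside 61.2% and MYC outside 43.7%. With summits the values were peaks at an end 17.1%, peaks inside 44.8%, peaks outside 38.1%, genes at an end 61.1%, genes inside only 14%, genes at both ends 7.3%, width at an end 5017 bp, width outside 533 bp, H3K27ac outside 52.5% and MYC outside 29.9%. With every gene record the values were peaks at an end 28.5%, peaks inside 47.5%, peaks outside 24.1%, genes at an end 39%, genes inside only 5.51%, genes at both ends 14.6%, width at an end 3720 bp, width outside 496 bp, H3K27ac at an end 73.5%, H3K27ac outside 52.1% and MYC outside 30.9%. With chromosome X the values were genes at an end 69.4%, width at an end 4867.5 bp and width outside 527 bp. Without LOC records, an alternative chosen after seeing the data, the values were peaks outside 37.7%, genes at an end 71.1% and width at an end 4995 bp. In each of these alternatives gene-end peaks were wider and more often acetylated than outside peaks. Of the shares of genes, summits lowered that at both ends most. No paired analysis was possible because each target has 1 joint list, and for the same reason no library could be left out. Depth is unknown, so a gene without a peak is not shown to lack the mark.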

Other observations

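Genes without H3K4me3 formed runs along the chromosomes. Among coding genes in order of position, 38 runs of 10 or more consecutive genes with no peak at an end or inside held 730 genes, 17.4% of the unmarked ones. Several of the long runs were made of tissue-restricted gene families, while 9 runs hold records with LOC symbols, some of which carry scaffold positions. The other 29 runs held 549 genes. The longest, 65 genes on chromosome 11 from OR4B1 to APLNR, held 57 olfactory receptors, and 49 of its genes had H3K27me3 at an end. A run of 36 genes on chromosome 1 from LCE3E to LORICRIN holds late cornified envelope and small proline-rich genes of the skin barrier, and all 36 had H3K27me3. The run of 29 genes on chromosome 21 from GRIK1 to KRTAP20-3 is mostly hair keratin-associated genes, of which 14 had H3K27me3 and 14 had no peak of any other list. The 27 genes from OR51E1 to OR51B2 on chromosome 11 include the beta-globin cluster.

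In 3 of the 38 runs no gene had a peak of any of the 6 lists at an end. Copy number was not examined, so whether the DNA of these runs is present in the cells was not tested. The 24 genes on chromosome 9 from HACD4 to IZUMO3 include the type I interferon cluster, MTAP, CDKN2A and CDKN2B. The 23 genes on chromosome 4 from UGT2B11 to AMBN include UGT2 enzymes, caseins and salivary proteins. The 19 genes on chromosome 1 from OR2T33 to LYPD8 are olfactory receptors but for LYPD8.

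Chromosomes differed in how their H3K4me3 peaks were placed. On chromosome 19, 26.4% of peaks were at a gene end and 26.0% outside records, while on chromosome 21 the shares were 13.6% and 52.1%. Genes marked at an end ranged from 55.6% on chromosome 21 to 78.1% on chromosome 16. Chromosome 11, with 61.2%, had the second-lowest share.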
